A study of Mus musculus with 12 samples.

Results

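The genes described here are 49 genes that proliferating cells switch on, 21 for DNA replication and 28 for mitosis, of 19938 genes measured. They were taken from a list of names, and 48 of them were measured: every replication gene and 27 of the mitotic genes. Ccnb1, cyclin B1, had no probe set in the annotation and is not analysed here. The cells were cDC1, or type 1 conventional dendritic cells, which present captured antigen to CD8 T cells. They were sorted from naive C57BL/6 mice and measured on 12 Affymetrix arrays as 4 groups of 3 arrays. All groups carried Cd40 fl/fl, a Cd40 gene that Cre can delete. The Xcr1++ groups carried no Cre, and the Xcr1Cre+ groups carried 1 Xcr1-Cre allele, which drives Cre in cDC1. Each genotype was sampled in spleen (SPL) and in skin-draining lymph node (SDLN). All sorted cells were B220-, MHC II high, XCR1+ and Sirpa-. Spleen cells were CD11c high, and lymph node cells were the migratory CD11c int population. No age is given. Nothing states that the replicates of a group were different mice, so the p-values rest on a spread between arrays that may be technical.

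A dividing cell first copies its DNA in S phase and then parts the copies in mitosis. Replication genes are switched on by E2F factors around the entry into S phase, and mitotic genes follow later under the MuvB complex with B-MYB and FOXM1, which reads a promoter element called CHR, often beside CCAAT boxes. Dendritic cell precursors proliferate, and resident cDC1 keep some capacity to divide, whereas migratory cDC1 in a lymph node have matured and left the skin. In bulk RNA, fewer cycling cells and less RNA per cycling cell cannot be told apart.

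The promoters of 4 genes are shown because these genes were among those that differed most between tissues and their sequences carry the elements named above. They were taken from RefSeq (build GRCm38.p6) in the window from 250 bases before to 50 after the start, read 5′ to 3′ on the gene's own strand, and each printed stretch holds 150 bases. In Rrm2 (chr12:24708004-24708153, plus strand) and Mcm6 (chr1:128359676-128359825, minus strand) the capitals mark E2F-type matches. In Kif23 (chr9:61946770-61946919, minus strand) and Ccnb2 (chr9:70421525-70421674, minus strand) they mark the CHR-type match in the stretch. The printed stretch runs from -250 to -101 for Rrm2 and from -120 to 30 for the other genes.
Rrm2: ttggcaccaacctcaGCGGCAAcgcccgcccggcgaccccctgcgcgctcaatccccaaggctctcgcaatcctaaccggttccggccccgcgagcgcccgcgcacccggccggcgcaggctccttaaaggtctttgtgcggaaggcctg
Mcm6: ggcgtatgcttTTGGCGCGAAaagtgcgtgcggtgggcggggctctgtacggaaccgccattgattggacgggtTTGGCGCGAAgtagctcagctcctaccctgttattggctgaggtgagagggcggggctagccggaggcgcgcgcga
Kif23: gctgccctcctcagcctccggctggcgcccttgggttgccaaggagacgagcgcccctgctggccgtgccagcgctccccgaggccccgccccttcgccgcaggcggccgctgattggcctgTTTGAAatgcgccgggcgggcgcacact
Ccnb2: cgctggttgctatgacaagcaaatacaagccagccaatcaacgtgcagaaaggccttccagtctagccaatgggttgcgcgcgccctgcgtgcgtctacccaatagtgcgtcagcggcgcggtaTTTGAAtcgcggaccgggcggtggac

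Rrm2 carried GCGGCAA, an E2F-type match on the opposite strand, from -235 to -229. In Mcm6, TTGGCGC and GCGCGAA overlapped at -109 to -100 and again at -46 to -37. A further match, GCGCGAA from 25 to 31, ran past the end of the printed stretch and is not in capitals. In this promoter the CCAAT box lay on the opposite strand, as ATTGG, from -57 to -53 and from -14 to -10. Kif23 held TTTGAA from 3 to 8 after the start, with ATTGG just before it from -7 to -3. Ccnb2 held TTTGAA from 5 to 10 and again from -167 to -162, before the printed stretch, with 3 CCAAT boxes whose first bases were at -87, -54 and -21. The E2F-type match in the promoter of Chek1, the replication gene with the largest mean tissue difference, lay past the stretch that could be printed.

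Promoters were found for 39 of the 48 measured genes, and none was used for Mcm4, Gins1, Gins2, Ccne2, Ccna2, Aurkb, Kif20a, Tpx2 and Foxm1. The CHR letters (TTTGAA or TTCGAA, either strand) occurred in 18 of 22 mitotic promoters (81.8%) and in 3 of 17 replication promoters (17.6%), against 19.0% of the promoters of all measured genes. The E2F letters (TTCGCGC on either strand, or the variants with TTGGCGC or with TTCCCGC or with TTGCCGC, matches free to overlap) showed the opposite order, with 9 of 17 replication promoters (52.9%) and 5 of 22 mitotic promoters (22.7%), against 14.7%. CCAAT was present in 18 of 22 mitotic promoters (81.8%) and in 11 of 17 replication promoters (64.7%), against 41.7%. In all these shares each gene was counted once, and a match in any promoter of the gene was enough. Over all 27025 genes with a promoter, whatever was measured, the shares were 21.7% for CHR, 10.9% for E2F and 41.1% for CCAAT. The 4 mitotic promoters without CHR letters were those of Birc5, Plk4, Cenpe and Nusap1. A match describes letters in this window and does not show that a factor binds there.

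Of the series as a whole, array medians lay between 66.1 and 74.4 in intensity. A background of 22.2 was taken from the highest of 3 measured Y-linked genes, and all but 1 of the 48 genes lay above it on every array. The exception was Prc1, at 21.2 on 1 spleen array and at 19.8 and 20.8 on 2 lymph node arrays. Cd40 itself did not follow the genotype labels on every array. Its intensity in spleen was 572, 525 and 309 on the arrays labelled Xcr1++ and 365, 214 and 569 on those labelled Xcr1Cre+, for replicates 1, 2 and 3. The lymph node arrays gave 2138, 2777 and 1542 under the Xcr1++ label and 1427, 1388 and 3358 under the Xcr1Cre+ label. The exact two-sided permutation p was 0.6 in spleen and 0.8 in lymph node, where 3 arrays against 3 cannot go below 0.1, so the genotype named for an array below is only the one on its label. In both tissues, the array labelled Xcr1Cre+ was below the same-numbered array labelled Xcr1++ for replicates 1 and 2 and above it for replicate 3. Every genotype difference and every same-numbered pair below is by label, and the genotype results are also given without the replicate 3 arrays, an alternative chosen after seeing the data. Where the Cd40 probes lie relative to the deleted exons was not analysed here.

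All 14 cDC1 markers were above background on all arrays. In lymph node, 9 of the 14 fell and 2 rose in Xcr1++, and 9 fell and 3 rose in Xcr1Cre+ (limma, adjusted p under 0.05). Of all genes, 13.2% fell and 12.9% rose in Xcr1++, and 15.2% fell and 13.1% rose in Xcr1Cre+. Xcr1 lay between 1945 and 3508 in spleen and between 203 and 286 in lymph node, and Clec9a between 3635 and 5562 and between 226 and 378. Batf3 went the other way, between 1423 and 1946 in spleen and between 2358 and 3020 in lymph node. The maturation markers Ccr7 and Fscn1 were higher in lymph node, with Ccr7 at 2329 to 3668 in spleen and 7339 to 9556 in lymph node and Fscn1 at 362 to 679 in spleen and 6924 to 14213 in lymph node. Of 14 measured maturation markers, 10 rose and 2 fell in Xcr1++, and 11 rose and 2 fell in Xcr1Cre+. The markers that fell were the costimulatory genes Cd86 (log2 differences -1.45 and -1.26, adjusted p = 3.93e-06 and 1.48e-05) and Cd80 (-1.22 and -0.94, adjusted p = 1.29e-05 and 0.000129). Cd83 did not pass (-0.30 and -0.06, adjusted p = 0.306 and 0.835).

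Proliferation genes were lower in migratory lymph node cDC1 than in spleen cDC1 in both genotypes. Among Xcr1++ arrays, 42 of the 48 genes fell (limma, adjusted p under 0.05), where 13.2% of all genes fell, and 0 rose, where 12.9% of all genes rose. The fallen genes were 18 of 21 replication genes and 24 of 27 mitotic genes. Among Xcr1Cre+ arrays, 45 of 48 fell, where 15.2% of all genes fell, and 0 rose, where 13.1% of all genes rose. Those 45 were 19 replication and 26 mitotic genes. These 2 comparisons share no arrays, although their tests share 1 estimate of the spread. Without the replicate 1 arrays, which stood apart in spleen, the counts were 45 and 48. Without the replicate 3 arrays, on which Cd40 went against the labels, they were 35 and 31 with 2 arrays a group, and 0 rose. The share of all genes that fell is not given for either omission, so these counts cannot be set against it. With the replicate number as a block they were also 45 and 48, where 17.8% and 20.4% of all genes fell.

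**Figure D1:**
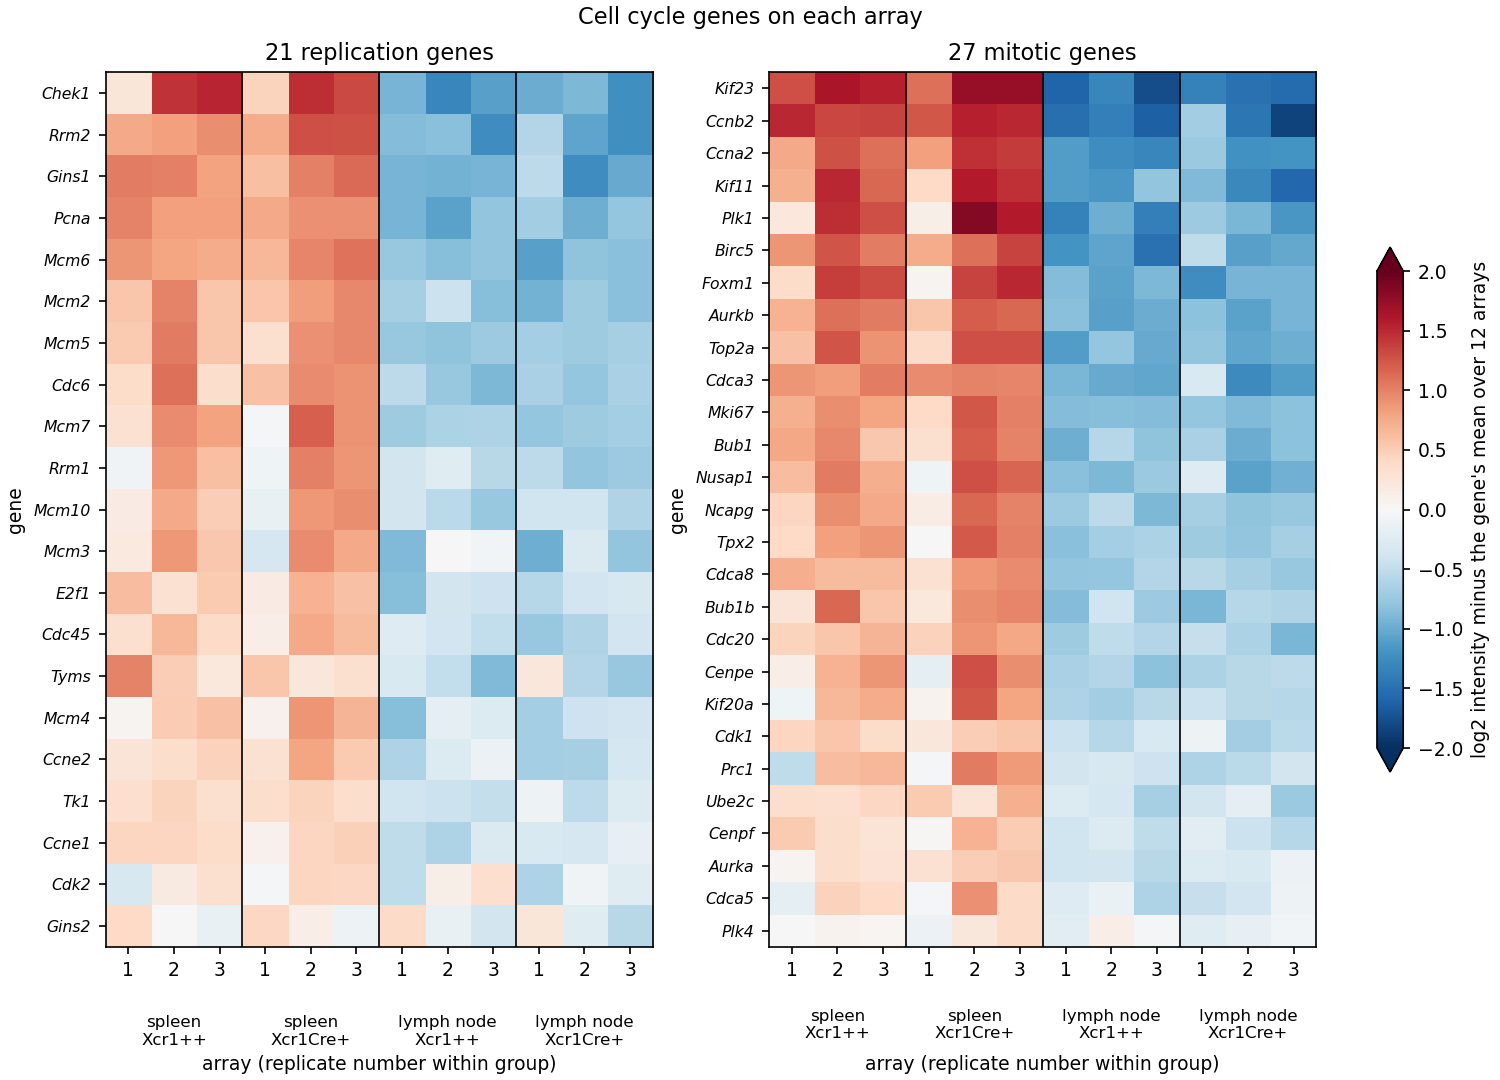
Log2 intensity of each measured gene on each of the 12 arrays, relative to that gene's mean over the arrays, with replication and mitotic genes in separate panels and the arrays ordered by group and replicate. The 6 spleen arrays are above the mean and the 6 lymph node arrays below it for most genes, and 41 of 48 genes had every spleen array above every lymph node array.

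The ranges of the arrays did not meet for most of these genes. Every Xcr1++ spleen array lay above every Xcr1++ lymph node array for 43 of the 48, against 17.3% of all genes, and the same held for 45 of 48 among Xcr1Cre+ arrays, against 18.7%. Over all 6 spleen and 6 lymph node arrays, 41 genes did not overlap, 17 for replication and 24 for mitosis, against 13.7% of all genes. The 7 genes that did overlap were Mcm3, Gins2, Tyms, Cdk2, Cdca5, Plk4 and Prc1.

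The MCM genes encode the helicase that unwinds DNA at the fork. Paired values are given for Xcr1++ first and Xcr1Cre+ after it, and each set of 3 intensities for replicates 1, 2 and 3 in that order. Mcm6 (probe set 10357436, chromosome 1) had intensities of 676, 628 and 612 in Xcr1++ spleen and 576, 717 and 774 in Xcr1Cre+ spleen. Its lymph node values were 215, 202 and 212, and 171, 209 and 206. No lymph node array reached the lowest spleen array. The gene was 3.04-fold lower in lymph node in Xcr1++ (log2 difference -1.61, SE 0.15, adjusted p = 1.74e-06) and 3.51-fold lower in Xcr1Cre+ (-1.81, adjusted p = 5.15e-07). Mcm2 (probe set 10546163, chromosome 6) lay at 527, 715 and 528, and at 526, 640.4 and 698, in spleen. In lymph node it lay at 225, 266 and 198, and at 186, 219 and 202. It was thus 2.56-fold and 3.06-fold lower in the 2 genotypes (adjusted p = 3.86e-05 and 7.35e-06). Mcm4, Mcm5 and Mcm7 fell in both genotypes too, with log2 differences between -0.82 and -1.46. Mcm3 had a similar size, -0.84 and -1.14, but a wider spread, with an SE of 0.33. It passed only in Xcr1Cre+ (adjusted p = 0.0173, against 0.0793 in Xcr1++). With the replicate number as a block it passed in Xcr1++ as well (adjusted p = 0.000472). Its Xcr1Cre+ call was lost without any 1 of 4 arrays: Xcr1Cre+ spleen replicates 2 (adjusted p = 0.0892) and 3 (0.0770), and Xcr1Cre+ lymph node replicates 1 (0.0650) and 3 (0.0562).

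Cdc6, which loads the helicase onto origins, fell, with log2 differences of -1.34 and -1.49. Cdc45 and the GINS subunits join the helicase to make it active, and Mcm10 helps start it. Gins1 (probe set 10476989, chromosome 2) showed intensities of 138, 136 and 118, and of 102, 136 and 148, in spleen. The lymph node arrays gave 35.5, 35.1 and 35.5, and 47.1, 28.5 and 33.6. Spleen and lymph node arrays were far apart for Gins1, with a 3.67-fold difference in Xcr1++ and 3.57-fold in Xcr1Cre+ (adjusted p = 1.58e-06 and 1.88e-06). Cdc45 fell in both genotypes (log2 differences -0.83 and -1.09), and Mcm10 was 2.03-fold and 2.01-fold lower. Gins2 did not pass in either genotype: its values were 192, 145 and 130.2, and 193, 159 and 135, in spleen, and 189, 131 and 112, and 171, 122 and 98.6, in lymph node. The ranges overlapped, and the log2 differences were -0.13 (SE 0.24, adjusted p = 0.801) and -0.33 (adjusted p = 0.333). With the block, the latter passed (adjusted p = 0.0145).

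Pcna (probe set 10487930, chromosome 2), the sliding clamp of the DNA polymerases, lay at 6348, 5625 and 5641 in Xcr1++ spleen and at 5393, 6002 and 6027 in Xcr1Cre+ spleen. In lymph node it lay at 1669, 1522 and 1842, and at 1958, 1616 and 1858. The arrays of a tissue were close together, and the gene was 3.50-fold and 3.21-fold lower in lymph node (SE 0.13 on the log2 scale, adjusted p = 1.38e-07 and 2.47e-07). Pcna had 2 probe sets, as did Tk1 and Top2a, and each fell whether the brightest or the mean of the probe sets was used. The mean left Pcna at -1.81 and -1.70.

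Ribonucleotide reductase makes the building blocks of DNA, with Rrm2 as the subunit whose supply follows S phase. Rrm2 (probe set 10394978, chromosome 12) measured 261, 271 and 294, and 257, 374 and 372, in spleen. Lymph node arrays measured 84.8, 86.2 and 64.8, and 103, 74.3 and 65.7. Every spleen array was above every lymph node array, by 3.52-fold in Xcr1++ and 4.15-fold in Xcr1Cre+ (adjusted p = 6.45e-06 and 1.97e-06). Rrm1, the other subunit, fell, with log2 differences of -0.85 and -1.28. Tyms and Tk1 make and salvage thymidylate. Tk1 fell (-0.80 and -0.68), and so did Tyms (-1.13 and -0.74). The Tyms call in Xcr1Cre+ was close to the threshold (adjusted p = 0.0472) and was lost after quantile normalization (log2 difference -0.57, adjusted p = 0.192), without the trend (0.0505) and with only the 2 groups compared (0.0592). Without any 1 of 7 arrays it was lost as well, with adjusted p between 0.0614 and 0.183.

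The S phase control genes were uneven. E2f1 (probe set 10488785, chromosome 2), the transcription factor, had intensities of 229, 185 and 214, and of 168, 242 and 224, in spleen, and of 83.2, 116 and 112, and 101, 114 and 119.8, in lymph node. It fell, with log2 differences of -1.02 and -0.91 (adjusted p = 0.000382 and 0.000949). Chek1 (probe set 10592201, chromosome 9), the kinase that guards stalled forks, was at 90.8, 207 and 219, and at 104, 212 and 190.0, in spleen. In lymph node it was at 40.0, 30.9 and 35.8, and at 38.4, 41.0 and 32.6. Replicate 1 was the lowest array in both spleen groups for Chek1 and still above every lymph node array. Its difference was 4.53-fold in Xcr1++ and 4.34-fold in Xcr1Cre+ (SE 0.31 on the log2 scale, adjusted p = 8.62e-05 and 0.000107). The cyclin E genes fell with smaller differences, -0.88 and -0.59 for Ccne1 and -0.69 and -1.11 for Ccne2. Cdk2, the kinase that cyclin E activates, was at 277, 389 and 431, and at 336, 463 and 459, in spleen, and at 243, 375 and 436, and 225, 329 and 291, in lymph node. It did not pass in Xcr1++ (log2 difference -0.08, SE 0.24, adjusted p = 0.893) or in Xcr1Cre+ (-0.58, adjusted p = 0.0955), where it passed with the block (adjusted p = 0.000795).

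**Figure D2:**
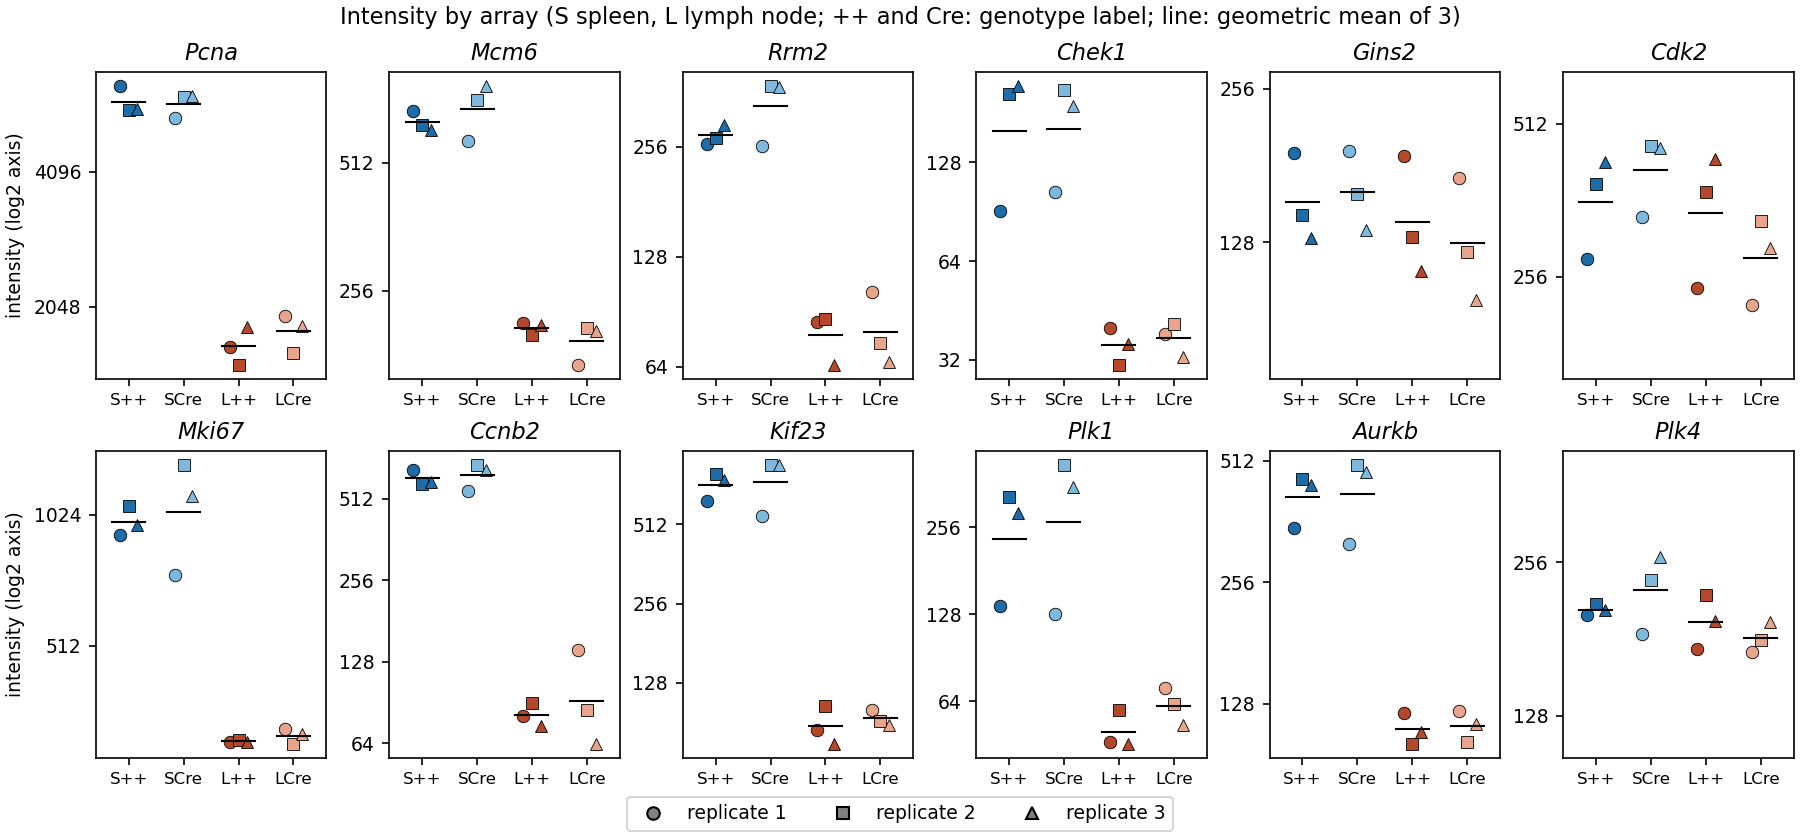
Intensity (log2 axis) of 6 replication genes, in the upper panels, and 6 mitotic genes, in the lower panels, on each array, with symbols for the replicate number and a line at the geometric mean of the 3 arrays of a group. Spleen and lymph node arrays are apart for Pcna, Mcm6, Rrm2, Chek1, Mki67, Ccnb2, Kif23, Plk1 and Aurkb and overlap for Gins2, Cdk2 and Plk4.

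Among mitotic genes, the cyclins came first. Ccnb2 (probe set 10594774, chromosome 9), cyclin B2, had intensities of 654, 581 and 590.2, and of 545, 679.9 and 654, in spleen. In lymph node these were 80.8, 89.8 and 74.2, and 142, 84.8 and 63.7. All lymph node arrays were low, with replicate 1 of Xcr1Cre+ the highest of them. The difference was 7.47-fold in Xcr1++ and 6.82-fold in Xcr1Cre+ (SE 0.23 on the log2 scale, adjusted p = 3.66e-07 and 5.47e-07). Ccna2 (probe set 10497831, chromosome 3), cyclin A2, which acts in S phase and early mitosis, was at 279.8, 399 and 353, and at 292, 452 and 435, in spleen, and at 76.2, 69.8 and 66.6, and 98.5, 71.0 and 72.4, in lymph node. It was 4.81-fold and 4.84-fold lower in lymph node (adjusted p = 8.24e-07 and 7.82e-07). Their partner kinase Cdk1 (probe set 10369815, chromosome 10) fell too, 1.85-fold and 1.83-fold (adjusted p = 0.00119 and 0.00127).

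Kif23 (probe set 10594251, chromosome 9), a kinesin of the central spindle needed for cytokinesis, had the largest tissue difference of all 48 genes in both genotypes. Its spleen values were 627, 796 and 755, and 553, 861 and 861, and its lymph node values were 84.7, 105 and 74.8, and 101, 91.4 and 88.5. It was 8.28-fold lower in Xcr1++ lymph node (log2 difference -3.05, SE 0.19, adjusted p = 4.57e-08) and 7.96-fold lower in Xcr1Cre+ (-2.99, adjusted p = 5.50e-08). Kif11 (probe set 10462796, chromosome 19), the motor that pushes the spindle poles apart, was at 200.1, 349 and 274, and at 161, 369.7 and 338, in spleen, and at 56.5, 54.8 and 70.8, and 66.9, 50.5 and 41.5, in lymph node. Replicate 1 was again the lowest spleen array. Kif11 was 4.44-fold and 5.24-fold lower in lymph node (adjusted p = 5.92e-05 and 2.20e-05). Kif20a fell 2.10-fold and 2.33-fold. Prc1, which bundles the central spindle and works with Kif23, was near background in lymph node and passed only in Xcr1Cre+ (-1.13, adjusted p = 0.00845, against -0.62 and 0.147 in Xcr1++). That call rests partly on values not above background, since 2 of the 3 Xcr1Cre+ lymph node arrays, at 19.8 and 20.8, did not reach it and the other was at 23.4. It passed in Xcr1++ with the block (adjusted p = 0.0257) and, with a difference of -1.01, without Xcr1++ spleen replicate 1 (adjusted p = 0.00477).

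Plk1 (probe set 10557156, chromosome 7), a kinase for mitotic entry and spindle assembly, was at 137, 326 and 287, and at 128, 420.4 and 353, in spleen. In lymph node it was at 46.1, 59.6 and 45.5, and at 71.2, 62.5 and 52.8. Its spleen arrays spread widely, with replicate 1 lowest, and none reached down to the lymph node arrays. The differences were 4.68-fold and 4.33-fold (SE 0.39 on the log2 scale, adjusted p = 0.000518 and 0.000766). Aurkb (probe set 10377405, chromosome 11), Birc5 (probe set 10382998, chromosome 11) and Cdca8 are partners in the chromosomal passenger complex, which corrects attachments of chromosomes to the spindle. Aurkb had values of 349, 463 and 447, and of 319, 499 and 479.9, in spleen, and of 121, 102 and 109, and 123, 103 and 114, in lymph node. It was 3.77-fold and 3.76-fold lower (adjusted p = 2.24e-06 and 2.20e-06). Birc5 had values of 303, 395 and 336, and of 275, 352 and 423, in spleen, and of 72.3, 78.9 and 58.9, and 116, 77.2 and 81.2, in lymph node. That gave 4.93-fold and 3.83-fold (adjusted p = 8.28e-07 and 4.11e-06), and Cdca8 fell 2.60-fold and 2.58-fold.

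Aurka, which matures centrosomes, fell 1.60-fold in each genotype (adjusted p = 0.00108 and 0.00104). Plk4, which starts centriole duplication, did not pass: its spleen values were 202, 212 and 206, and 185, 236 and 262, and its lymph node values 173, 221 and 196, and 171, 179.8 and 195. These ranges overlapped, and the log2 differences were -0.08 (SE 0.15, adjusted p = 0.809) and -0.31 (adjusted p = 0.147, or 0.0408 with the block). The checkpoint kinases Bub1 and Bub1b, which delay chromosome separation, fell, with log2 differences of -1.54 and -1.66 for Bub1 and -1.32 and -1.40 for Bub1b. Cdc20 and Ube2c, which serve the anaphase-promoting complex, fell, with -1.16 and -1.37 for Cdc20 and -0.79 and -0.93 for Ube2c.

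Mki67 (probe set 10568714, chromosome 7) codes for Ki-67, the common marker of cycling cells. It lay at 918, 1074 and 969.7, and at 745, 1330.3 and 1128, in spleen, and at 309, 312 and 308, and 329.5, 305 and 321, in lymph node. The 6 lymph node arrays were nearly level, while the spleen arrays spread from 745 to 1330.3. Mki67 was 3.18-fold and 3.26-fold lower in lymph node (adjusted p = 1e-05 and 7.83e-06). Top2a (probe set 10390707, chromosome 11), the enzyme that untangles chromosomes, was at 215, 342 and 266, and at 186, 349.5 and 348, in spleen, and at 66.0, 83.3 and 71.2, and 82.6, 69.2 and 72.9, in lymph node. That was 3.68-fold and 3.78-fold lower (log2 differences -1.88 and -1.92, adjusted p = 2.50e-05 and 1.98e-05). With the mean of its 2 probe sets in place of the brighter one, the differences were -0.86 and -0.83 (adjusted p = 0.00315 and 0.00386). Foxm1 (probe set 10542079, chromosome 6), the transcription factor of the mitotic programme, was at 149, 303 and 284, and at 120.1, 294 and 329.7, in spleen, and at 63.1, 54.9 and 61.7, and 49.1, 60.4 and 60.6, in lymph node. It was 3.91-fold and 4.02-fold lower (adjusted p = 0.000381 and 0.000314). The centromere proteins Cenpe and Cenpf, the spindle proteins Nusap1 and Tpx2, the condensin subunit Ncapg and Cdca3 fell in both genotypes, with log2 differences from -0.78 for Cenpf to -1.90 for Cdca3 in Xcr1++. Cdca5, which protects cohesion between sister chromatids, fell in Xcr1Cre+ (-0.74, adjusted p = 0.0237). In Xcr1++ it was at -0.56 (adjusted p = 0.0920) and passed with the block (0.0234).

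**Figure D3:**
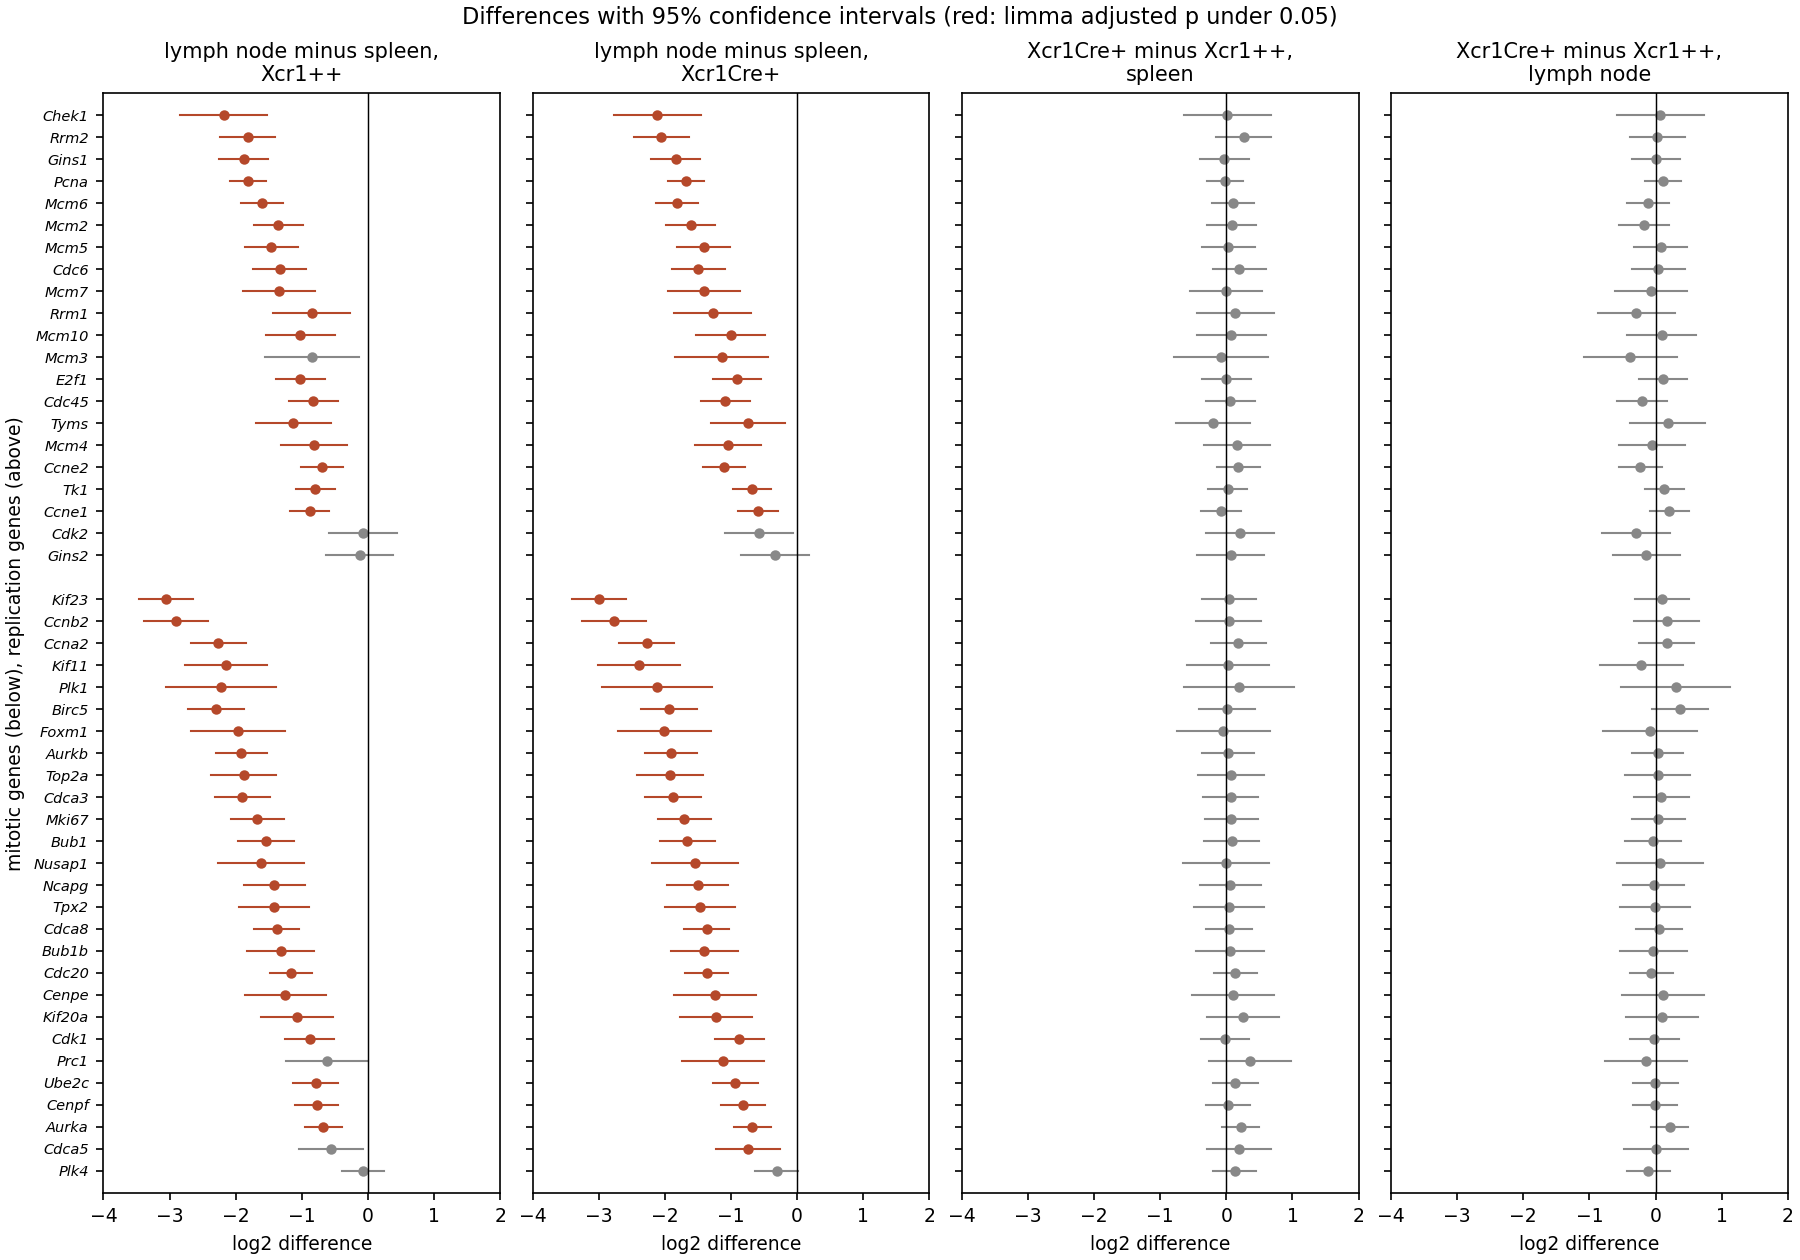
Log2 difference of each measured gene with its 95% confidence interval, for lymph node minus spleen in each genotype, in the left panels, and Xcr1Cre+ minus Xcr1++ in each tissue, in the right panels. Red points passed limma at an adjusted p under 0.05: 42 and 45 genes in the tissue panels and 0 in the genotype panels.

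The median difference between tissues was larger for mitotic than for replication genes. In Xcr1++, the median log2 difference was -1.42 over 27 mitotic genes (quartiles -1.94 and -0.98) and -1.02 over 21 replication genes (quartiles -1.46 and -0.83), against 0.03 over all genes. In Xcr1Cre+, it was -1.51 and -1.14, against 0.07 over all genes. The distributions overlapped widely, from -3.05 to -0.08 for mitotic and from -2.18 to -0.08 for replication genes in Xcr1++. A difference below -1, which is more than 2-fold, was seen in 1227 of all 19938 genes in Xcr1++ and in 1426 in Xcr1Cre+. It was seen in 20 of 27 mitotic and 12 of 21 replication genes in Xcr1++, and in 21 and 15 in Xcr1Cre+. The genes are not replicates of a condition, so the difference between the 2 groups has no test here.

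**Figure D4:**
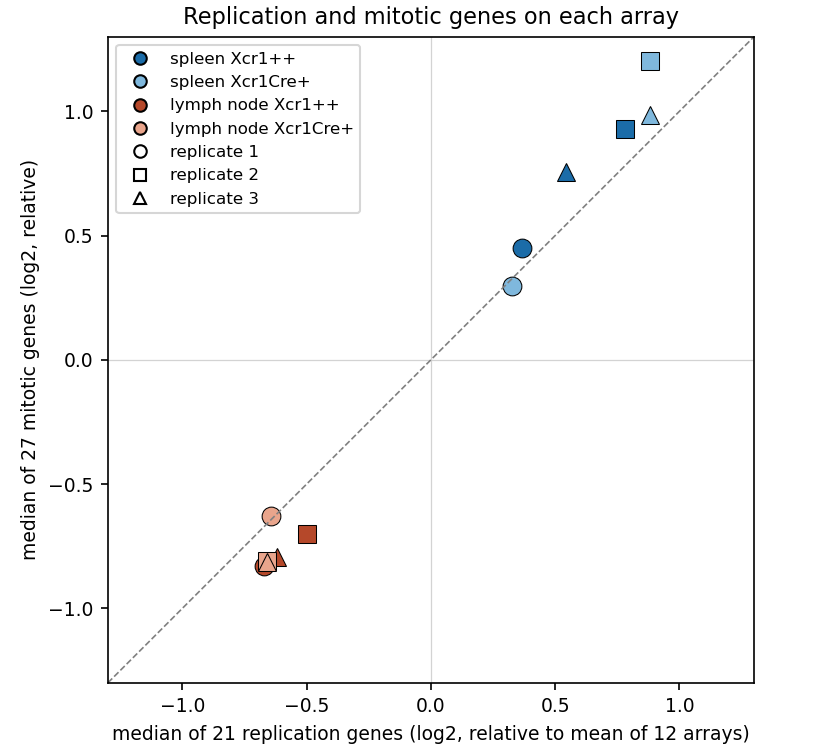
Median log2 intensity of the 27 mitotic genes against that of the 21 replication genes on each array, each gene taken relative to its mean over the 12 arrays. Spleen arrays lie at 0.33 to 0.88 on the replication axis and 0.30 to 1.20 on the mitotic axis, and lymph node arrays at -0.67 to -0.50 and -0.83 to -0.63.

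Array by array, both groups of genes separated the tissues. The replication median was 0.37, 0.78 and 0.54 in Xcr1++ spleen and 0.33, 0.88 and 0.88 in Xcr1Cre+ spleen, relative to the mean of all arrays. In lymph node it was -0.67, -0.50 and -0.62, and -0.64, -0.66 and -0.66. For mitotic genes the medians were 0.45, 0.93 and 0.76, and 0.30, 1.20 and 0.99, in spleen, and -0.83, -0.70 and -0.79, and -0.63, -0.81 and -0.81, in lymph node. The size of the tissue difference was much alike across genes in the 2 genotypes, with a Pearson r of 0.959 over the 48 genes, given as a description because genes share arrays. For a dependence of the tissue difference on genotype, limma called 0 of 48 genes (0.0% of all genes). The smallest unadjusted p among them was 0.0707, and the largest absolute value of the interaction was 0.505. Over all genes, 326 had an unadjusted p under 0.05.

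Some markers of other cell types also differed between the tissues, and their part in the result was not tested. Of all genes, 13.2% fell and 12.9% rose in Xcr1++, and 15.2% fell and 13.1% rose in Xcr1Cre+. A count of 1 marker in the short lists below is near these shares. The summed intensity of 9 B cell markers was 781 to 1412 in Xcr1++ spleen and 1014 to 1230 in Xcr1Cre+ spleen, against 348 to 450 and 384 to 499 in lymph node. Of the 9, 2 fell and 0 rose in each genotype. Ms4a1 lay at 125 to 251 in spleen and 32.1 to 40.5 in lymph node, whereas Cd79a stayed near background, at 21.9 to 32.5, in all groups. The sum of 5 stromal markers was 728 to 879 in spleen and 387 to 498 in lymph node, with 1 of 5 lower. Germinal centre and plasma cell markers had sums of 311 to 517 in spleen and 410 to 515 in lymph node. The sum of 517 was on Xcr1Cre+ spleen replicate 1, where Jchain was at 163, against 19.0 to 31.0 on all other arrays. The other spleen arrays, at 311 to 353, lay below every lymph node array. Of the 7 germinal centre and plasma cell markers, 0 fell, and Prdm1 (1.85 and 1.74) and Sdc1 (0.46 and 0.48) rose in both genotypes. Over both genotypes together, the sums overlapped between tissues for T, NK, macrophage, neutrophil, erythroid, cDC2 and pDC markers. Within Xcr1++, the T cell sums did not overlap, at 761 to 825 in spleen and 831 to 1331 in lymph node. Within Xcr1Cre+, the erythroid sums (414 to 451 and 292 to 356) and the pDC sums (1007 to 1086 and 906 to 932) did not overlap. Single markers moved as well. Of 7 T cell markers, 3 rose in Xcr1++ and 4 in Xcr1Cre+, and 1 fell in each. Cd3g, a chain of the T cell receptor complex, lay at 58.9 to 138 in spleen and 116 to 513 in lymph node (log2 differences 1.77 and 1.55, adjusted p = 0.0110 and 0.0225). Of 6 pDC markers, 1 rose and 2 fell in each genotype, and Ccr9, a chemokine receptor, lay at 248 to 341 in spleen and 36.2 to 50.5 in lymph node (-2.67 and -2.60). Of 9 macrophage markers, 1 rose in each genotype, and 1 fell in Xcr1++ and 2 in Xcr1Cre+. Of 6 cDC2 markers and of 6 erythroid markers, 1 fell in each genotype. The remaining calls were 1 of 6 NK markers, lower in Xcr1++, and 1 of 7 neutrophil markers, higher in Xcr1Cre+.

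Other genes of the same machinery were lower in lymph node as well, but less uniformly. Of 39 measured further replication genes, 15 fell and 2 rose in Xcr1++ (median -0.28), and 18 fell and 1 rose in Xcr1Cre+ (median -0.40). The shares of all genes were 13.2% lower and 12.9% higher in Xcr1++, and 15.2% lower and 13.1% higher in Xcr1Cre+. Prim1, the DNA primase subunit, was at 271 to 386 in spleen and 64.9 to 104 in lymph node, with log2 differences of -2.15 and -2.01. Pola1, its polymerase partner, fell as well (-1.72 and -1.63), as did Tipin, a fork protection protein (-1.56 and -1.66). Dut, which keeps uracil out of DNA, had -1.28 and -1.22, and Chaf1b, a histone chaperone, -1.07 and -1.08. Gins3, a subunit of the same complex as Gins1 and Gins2, rose: it was at 57.5 to 102 in spleen and 268 to 542 in lymph node, 5.76-fold and 5.12-fold higher (adjusted p = 3.09e-06 and 5.66e-06). Gins4, the remaining subunit, was at 333 to 446 in spleen and 418 to 632 in lymph node. Its log2 differences of 0.47 and 0.33 did not pass (adjusted p = 0.0731 and 0.192) but passed with the block (0.00266 and 0.0199). Of the 4 subunits, Gins1 was thus lower, Gins3 was higher, and Gins2 and Gins4 did not pass in lymph node without the block.

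Of 43 further mitotic genes, 29 fell in Xcr1++ and 30 in Xcr1Cre+, and 0 rose in either (medians -0.79 and -0.85). Over all genes, 13.2% and 15.2% fell, and 12.9% and 13.1% rose. Cenpa, the histone of centromeres, was at 618 to 1225 in spleen and 112 to 201 in lymph node, with log2 differences of -2.45 and -2.47. Knl1, a scaffold of the kinetochore, fell (-2.07 and -2.58), as did Spc24, another kinetochore subunit (-2.34 and -2.23). Ncaph, a condensin subunit, had -2.19 and -2.16, and the kinesin Kif15 -1.79 and -1.96.

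Genes that govern entry into the cycle moved both ways. Of 37 measured genes for the G1 phase, cycle inhibitors and their regulators, 9 rose and 11 fell in each genotype (medians 0.09 and -0.13). Of all genes, 12.9% rose and 13.2% fell in Xcr1++, and 13.1% rose and 15.2% fell in Xcr1Cre+. Ccng2, a cyclin linked to leaving the cycle, rose most: it was at 125 to 165 in spleen and 1125 to 2054 in lymph node, 12.7-fold and 11.1-fold higher (adjusted p = 1.16e-08 and 1.73e-08). Cdkn2b, which codes for the CDK4 and CDK6 inhibitor p15, was at 65.6 to 88.3 in spleen and 493 to 861 in lymph node, 8.39-fold and 8.15-fold higher. Mxd1, an antagonist of MYC, was 5.45-fold and 5.93-fold higher. The pocket proteins Rbl1 and Rbl2, which hold E2F target genes down, rose, 2.59-fold and 2.31-fold for Rbl1 and 2.49-fold and 2.06-fold for Rbl2. Among the genes that fell were Cdk4, the G1 kinase, 2.51-fold and 2.68-fold lower, and the E2F family genes E2f8 (log2 differences -1.73 and -1.93) and E2f3 (-1.38 and -1.36, or -0.93 and -0.73 with the mean of its probe sets). Lin54, the MuvB subunit that contacts CHR, fell too (-1.49 and -1.22). Btg2, an antiproliferative gene, fell (-1.60 and -1.54). The inhibitors named above as higher were picked for the largest rises, so they do not stand for all inhibitors of the list.

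The genotype comparisons set arrays labelled Xcr1Cre+ against arrays labelled Xcr1++, and they use the same arrays as the tissue comparisons. In spleen, limma called 0 of the 48 genes, where 0.0% of all genes were called, and 0 of the 48 had an unadjusted p under 0.05, against 357 of 19938 genes. The log2 differences ran from -0.20 to 0.36 with a median of 0.06, against -0.01 over all genes, and 39 of 48 were above 0, against 45.9% of all genes. Without the replicate 3 arrays, 22 of 48 were above 0, against 8952 of 19938 genes. The median was -0.02, as it was over all genes, and 0 were called. The 95% confidence intervals reached from -0.79 to 1.02 at their extremes, and 47 of 48 lay within a 2-fold change. In lymph node, limma again called 0 of 48 (0.0% of all genes), 0 of the 48 had an unadjusted p under 0.05, against 402 genes in all, and the differences ran from -0.38 to 0.37 with a median of 0.02. Of these, 46 intervals lay within a 2-fold change. Without the replicate 3 arrays the lymph node median was 0.03, against -0.02 over all genes. In that fit, 30 of 48 were above 0, against 8556 of 19938 genes, and 0 were called. These p-values do not show that the genotypes are alike, and Cd40 did not follow the labels on every array. Without the replicate 3 arrays, Cd40 was at -0.97 in spleen and -0.79 in lymph node, and neither passed. Those arrays were left out because of Cd40 itself, so these 2 values are a description only.

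The genes with the smallest p in spleen were Aurka, Rrm2 and Prc1 among those higher in Xcr1Cre+ and Tyms, Ccne1 and Mcm3 among those lower. Aurka was at 0.22 (95% interval -0.06 to 0.49), Rrm2 at 0.26 (-0.15 to 0.68) and Prc1 at 0.36 (-0.26 to 0.98), all with adjusted p = 1. Tyms was at -0.20 (-0.76 to 0.36), Ccne1 at -0.08 and Mcm3 at -0.08. In lymph node, Birc5 was at 0.37 (-0.05 to 0.79), Aurka at 0.21 and Ccne1 at 0.21, and Ccne2 at -0.23 (-0.55 to 0.09), Cdk2 at -0.29 and Cdc45 at -0.20. None passed.

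The sign of the spleen difference depended on the replicate number. Between the arrays numbered 1, the median Xcr1Cre+ minus Xcr1++ difference over the 48 genes was -0.18, with 15 genes higher, against 47.6% of all genes. Between those numbered 2 it was 0.15, with 39 higher, against 44.0%. Between those numbered 3 it was 0.22, with 45 higher, against 49.8%. In all 3 pairs, 10 of the 48 (20.8%) were higher in Xcr1Cre+, against 12.8% of all genes, and 0 were lower, against 17.1%. In lymph node the medians were 0.12, -0.11 and 0.00.

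Within the spleen groups, the replicate 1 arrays stood apart for these genes. That array was the lowest of its group in both spleen groups for 32 of the 48 genes, 12 for replication and 20 for mitosis, against 21.6% of all genes. It lay below the mean of the other 2 arrays by a median log2 difference of -0.26 in Xcr1++ and -0.61 in Xcr1Cre+, against 0.05 and 0.07 over all genes. In lymph node, replicate 1 was the lowest in both groups for 8 of 48 genes, against 21.4% of all genes. The median SD of the 48 genes was 0.24 and 0.35 on the log2 scale in spleen and 0.16 and 0.17 in lymph node, against 0.13, 0.13, 0.16 and 0.16 over all genes. The summed cDC1 markers were also lowest on replicate 1 in spleen, 43740 and 41858 against 50850 to 54783 on the other spleen arrays. Cd8a was at 1146 and 1109 there, against 1979 to 2178. Not every cDC1 marker went this way, since Id2 was highest on replicate 1, at 3062 and 2367 against 1805 to 2355. Sums of markers of other cell types went both ways on the spleen arrays. The T cell sums were highest on replicate 1, 825 and 847 against 701 to 795. So were the germinal centre and plasma cell sums, 353 and 517 against 311 to 331. The B cell sums were lowest there, 781 and 1014 against 1027 to 1412. The part of these values in the replicate difference was not tested.

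**Figure D5:**
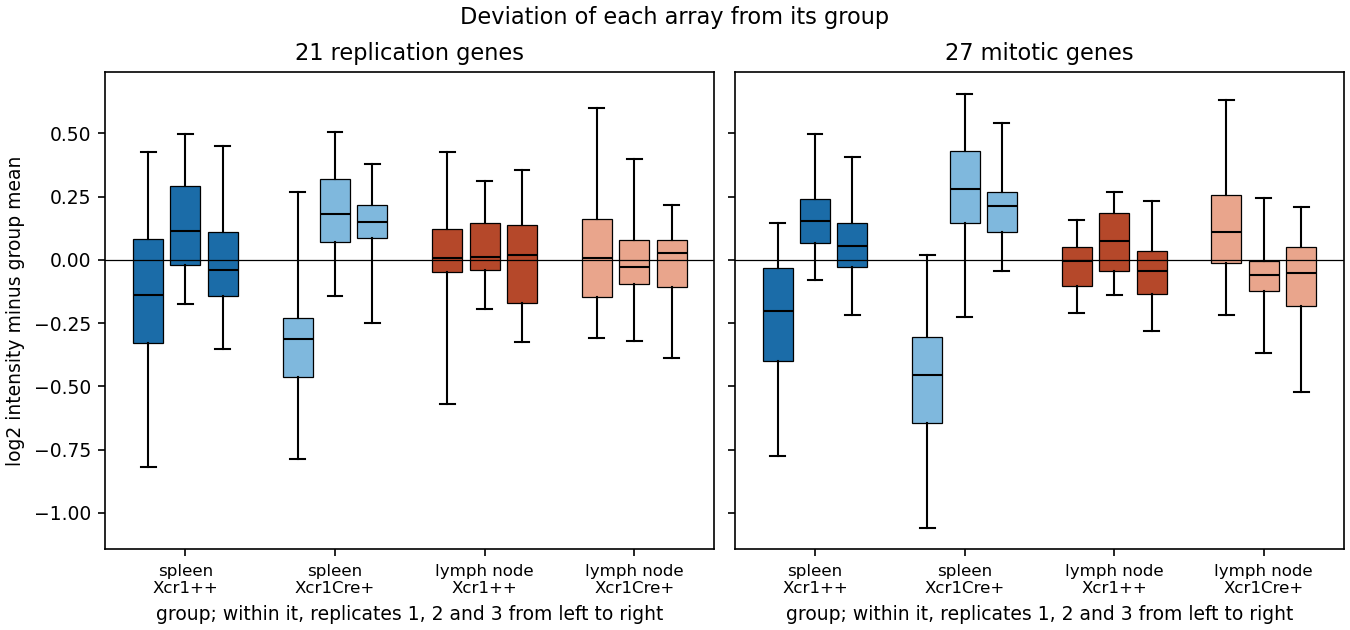
Log2 intensity of the 21 replication genes and the 27 mitotic genes on each array minus the mean of that array's group; the line in a box is the median over genes, the box spans the quartiles and the whiskers the full range. The replicate 1 medians of both spleen groups lie below 0, and those of the lymph node groups lie near or above 0.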

How the data were processed

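RNA of sorted cDC1 was measured on 12 arrays, 3 in each of 4 groups taken from the sample titles. Per the labels' protocols, the WT Pico kit made biotinylated cDNA from very little RNA. Linear intensities were deposited, which the authors summarised by RMA; the submitters' processing notes name Affymetrix Expression Console. Versions, build and annotation are not given in the sources used here. RMA brings arrays to a common distribution, so a change in total RNA per cell is not seen.

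Of 28853 probe sets, 23410 were in the annotation. Those with 1 symbol (21789) were kept, 21698 of them matched to RefSeq names by Entrez number; 1621 with several symbols were left out. The brightest probe set stood for a gene, leaving 19938 genes. Log2 intensities were fitted in limma 3.58.1 (R 4.3.3) with 4 group means, eBayes with trend, two-sided tests and Benjamini-Hochberg adjustment over all genes within each of 5 comparisons. Genes passed at an adjusted p under 0.05. The fit was tested on simulated data. Precision is limited by having 3 arrays per group.

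The members, lists and tests were chosen with earlier results of these data known. Named genes were Cd40, Mki67, Top2a, Pcna, E2f1, the members with the largest mean tissue difference (6 replication, 8 mitotic), the 3 smallest p per direction in each genotype comparison, and up to 5 called genes per direction of each further list; markers singled out were chosen after their values were seen. Same-numbered arrays of different groups deviated together from their group means (r between 0.573 and 0.729 for replicate 1, 0.309 and 0.449 for replicate 2, 0.293 and 0.466 for replicate 3). Unlike numbers had a median r of -0.449, which adds nothing, because subtracting the group means makes it negative once same-numbered arrays deviate together. The same-numbered values, which come from the data, were the basis for pairs in descriptions and for the replicate number as a block. The main fit had no term for the replicate number. Alternatives were the replicate number as a block, 2 other scalings, no trend, array weights, a filter on dim genes, an offset of 16, the mean of probe sets, only the groups compared, each array left out, all replicate 1 arrays left out and, added after seeing the data, all replicate 3 arrays left out. Promoters came from RefSeq (GRCm38.p6). Plots were drawn in matplotlib 3.10.9.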

Additional observations from a re-analysis of the deposited data

Results flagged for a closer look

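Gins2, Ccne2 and Cdk2 had a genotype difference that was higher in Xcr1Cre+ in all 3 numbered pairs of spleen arrays and lower in all 3 pairs of lymph node arrays. The difference of the genotype effect between tissues was -0.21 for Gins2 (SE 0.33), -0.41 for Ccne2 (SE 0.21) and -0.50 for Cdk2 (SE 0.34). Limma tested it and passed none of them, with adjusted p = 1 for each, and with the replicate block the adjusted p was 0.866 for Gins2 and 0.838 for Ccne2 and Cdk2. Opposite signs in all pairs occurred in 3 of 48 members (6.25%) and in 789 of 19938 genes (3.96%).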

How the results depend on the processing

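The members lower in lymph node numbered 42 in Xcr1++ and 45 in Xcr1Cre+, where 13.2% and 15.2% of all genes were lower. Across the other settings, apart from leaving out all replicate 3 arrays, these counts ran from 42 to 45 and from 44 to 48, and without each array in turn from 40 to 44 and from 42 to 46, with 0 higher throughout. The share of all genes is given only for the main fit and the replicate block. The counts of the remaining settings cannot be set against a share. Without all replicate 3 arrays, an alternative chosen after seeing Cd40 on them, they were 35 and 31, with no all-gene share beside them. The named genes whose calls this ended, with 4 arrays fewer, were Aurka (adjusted p = 0.0697) and Cdc45 (0.0568) in Xcr1++, Rbl1 in both genotypes (0.116 and 0.105), and Prc1 (0.0939), Tyms (0.291), Ccne1 (0.0738), Mcm3 (0.241) and Rbl2 (0.0534) in Xcr1Cre+. The replicate block, with the pairing taken from the data, gave 45 and 48, where 17.8% and 20.4% of all genes were lower. The genotype comparisons and the difference between them called 0 members under every setting run, the block included. With the block, 886 genes had an unadjusted p under 0.05 in spleen, 1360 in lymph node and 1145 for the difference between tissues (0, 2 and 2 members). Block calls that differed from the main fit for members are given beside them in the report.

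The median tissue difference of replication genes in Xcr1++ was -0.92 with an offset of 16 and -1.13 without all replicate 1 arrays, and without each array in turn from -1.12 to -0.97; that of mitotic genes was -1.23 with the offset. In Xcr1Cre+, the medians ran from -1.40 to -1.08 for replication and from -1.85 to -1.28 for mitotic genes over the other settings, and from -1.53 to -0.98 and from -1.84 to -1.298 without each array in turn. An offset shrinks differences of dim genes by construction. Genotype differences in spleen that turned sign were those of Ccne1 (0.029 with array weights, 0.056 without all replicate 1 arrays, -0.15 to 0.044 without each array in turn) and Mcm3 (0.0015, 0.14 and -0.32 to 0.31). Leaving out each array in turn, Prc1 ran from -0.022 to 0.69, Tyms from -0.38 to 0.014 and Cd40 from -0.70 to 0.0098 in spleen, and Cd40 from -0.57 to 0.066 in lymph node, where it was 0.061 without all replicate 1 arrays. The arrays behind these turns were Xcr1++ replicate 1 for Prc1 and Tyms, Xcr1++ replicate 2 or Xcr1Cre+ replicate 1 for Mcm3, Xcr1Cre+ replicate 1 for Ccne1 and, for Cd40, Xcr1Cre+ replicate 2 in spleen and any of 3 arrays in lymph node. Without all replicate 3 arrays, left out because of Cd40 itself, Cd40 was at -0.97 in spleen and -0.79 in lymph node. The tissue difference of Cdk2 in Xcr1++ ran from -0.26 to 0.17, and was above 0 without spleen replicate 3 or lymph node replicate 1. The cause was not tested, and none of these values passed. Near background, as at Prc1, signal limits what can be seen.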
